A study of Mus musculus with 16 samples.

Results

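The subunits of mitochondrial respiratory chain complexes I to IV that the nuclear genome encodes were followed in kidney rudiments of E11.5 mouse embryos. Members were taken by name: genes whose symbol in the array annotation starts with Ndufa, Ndufb, Ndufc, Ndufs or Ndufv (complex I), Uqcr (complex III) or Cox4 to Cox8 (complex IV), and Sdha, Sdhb, Sdhc and Sdhd (complex II), without the Ndufaf assembly factors. This gave 65 of 18193 named genes: 36 of complex I, 4 of complex II, 8 of complex III and 17 of complex IV. Each gene was read through 1 probe set, the brightest over the 16 arrays, out of 138 probe sets with a single member symbol. A further 10 probe sets that carry a member symbol together with another symbol were left out.

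The respiratory chain sits in the inner mitochondrial membrane and passes electrons to oxygen. Complex I takes electrons from NADH and complex II, which is also the succinate dehydrogenase of the citric acid cycle, takes them from succinate. Both hand them to ubiquinone, complex III passes them on to cytochrome c, and complex IV reduces oxygen; complexes I, III and IV pump protons that drive ATP synthase. Complex II is made of nuclear-encoded subunits alone, whereas complexes I, III and IV also hold subunits encoded in mitochondrial DNA.

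The study dissected the ureteric bud (UB), the epithelium that branches into the collecting ducts, from the metanephric mesenchyme (MM), which forms nephrons and stroma. It asked which genes mark each structure and which may be targets of the Hox11 genes. All 16 samples were E11.5; RNA of each went through 2 rounds of amplification onto its own Affymetrix MOE430_v2 array.

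The UB group held 4 wild-type samples of 3 to 9 pooled buds each. The double null group held 5 samples of MM lacking Hoxa11 and Hoxd11, laser-captured from 7 µm frozen sections of urogenital ridges. The captured wild-type group held 4 samples of MM laser-captured from 7 µm frozen sections of kidney rudiments, each pooled from 3 to 4 mesenchymes. The hand-dissected wild-type group held 3 samples from individual mesenchymes. Bud and mesenchyme of the hand-dissected samples were parted after collagenase at 0.5 mg/ml and 37 °C. No such pooling number is stated for the null samples, and no source used here names a strain or litter. Source piece and pooling therefore cannot be told apart from genotype in the null comparison, nor pooling and dissection method from each other between the wild-type mesenchymes. In the UB comparison pooled buds stand against individual mesenchymes, so pooling cannot be told apart from tissue there.

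Values are MAS5 signals, a linear measure of probe set brightness. Differences are on the scale of log2(signal + 36.3), which understates changes of dim genes. A change was called at an adjusted p below 0.05 from limma, Benjamini-Hochberg adjusted over all tested probe sets, and errors of differences are standard errors (SE). The array medians ran from 112.7 to 209.2. Of the deleted genes, Hoxa11 averaged 124 ± 44.5 in null arrays (SD, n = 5) and 709 ± 147 in captured wild-type arrays (SD, n = 4), a log2 difference of -2.23 ± 0.34 (limma, adjusted p = 0.0114). The Hoxd11 probe set averaged 341 ± 121 in null arrays and 435 ± 115 in captured wild-type arrays (SD) and was not called (-0.35, adjusted p = 0.635). The sources used here do not say whether these probe sets lie in the deleted parts. Null replicate 1 stood apart: its median correlation with the arrays of its group was 0.86, against 0.91 for each of the other null arrays.

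Most subunit genes were bright in every group. Of the 65 members, 60 passed the filter on low signals in all 3 comparisons, and Cox4i2, Cox7b2, Cox8b, Ndufa4l2 and Ndufb4 passed in none. Ndufb4, an accessory complex I subunit, is read here through a dim probe set, since 2 others that carry its symbol also carry those of Ndufb4b and Ndufb4c. Over the 34 tested complex I genes, the mean log2 signal was 13.27 ± 0.20 in UB (SD, n = 4), 13.66 ± 0.35 in null MM (n = 5), 13.63 ± 0.13 in captured wild-type MM (n = 4) and 13.09 ± 0.15 in hand-dissected MM (n = 3). Complex III followed the same order of wild-type groups, with 13.13 ± 0.19 in UB, 13.45 ± 0.12 in captured MM and 12.92 ± 0.16 in hand-dissected MM. Complex II had 13.33 ± 0.15 in UB, 13.55 ± 0.06 in captured MM and 13.67 ± 0.10 in hand-dissected MM, the highest of the wild-type groups here.

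**Figure D1:**
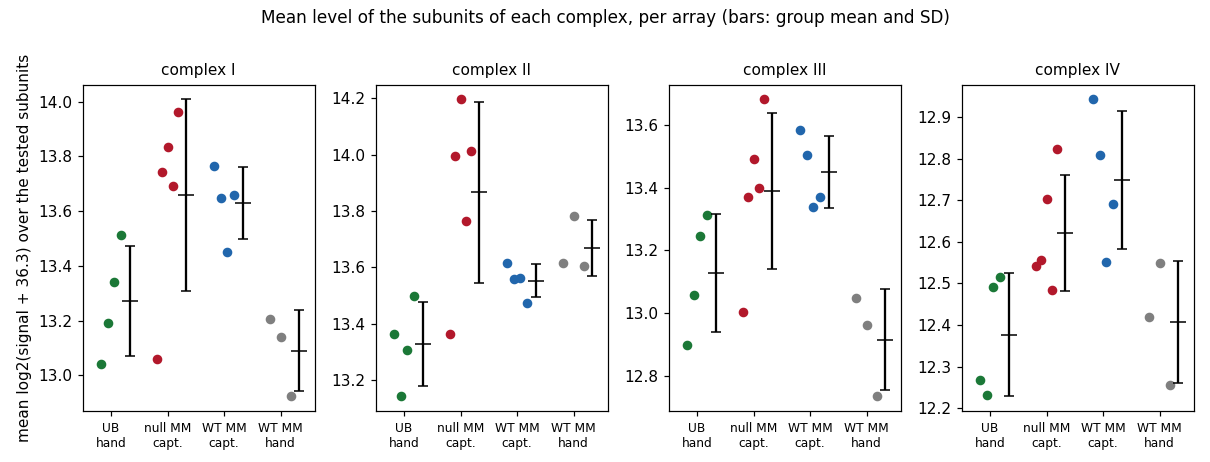
Mean log2(signal + 36.3) over the tested subunits of complexes I, II, III and IV (vertical axis, not starting at 0 and scaled per complex) in each array (points), with the group mean and SD (bars); groups run from UB through null captured and wild-type captured to wild-type hand-dissected MM. The complex I means of all 4 captured wild-type arrays, 13.45 to 13.77, lie above those of the 3 hand-dissected arrays, 12.92 to 13.21, while null replicate 1 lies low in complexes I, II and III.

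Subunits moved together from array to array within a group. UB replicate 4 held the highest signal of its group in 41 of the 60 tested members and UB replicate 1 the lowest in 37. Among null arrays, replicate 1 was lowest in 41 members and replicate 5 highest in 33. Among captured wild-type arrays, replicate 3 was lowest in 43 and replicate 1 highest in 37. Replicate 7 was lowest in 38 among the hand-dissected MM arrays. Members of 1 array are thus no independent replicates of a condition.

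Between UB and hand-dissected MM, 3 complex I subunits were higher in UB and 2 complex II subunits lower, and no subunit of complexes III or IV was called through the probe set that represents it. The 5 calls are 8.33% of the 60 tested members, and 1 of them, Ndufb1, passed the filter on low signals through the UB arrays alone. Of all tested probe sets, 23.9% were called in this comparison, 12.4% higher and 11.53% lower in UB. The median log2 difference of the 60 members was 0.09, and that of all tested probe sets was 0.02. A positive difference was found in 40 members and a negative one in 20. Without adjustment, limma gave p below 0.05 for 8 members higher and 4 lower in UB, among them 2 higher in complex III and 1 in each direction in complex IV. Counts at unadjusted p, here and below, have no share of all tested probe sets beside them, so they cannot be set against a background.

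Sdhc and Sdhd encode the membrane anchors of succinate dehydrogenase, Sdha its flavoprotein and Sdhb its iron-sulfur subunit. Sdhc had signals of 3098.2, 2214.7, 2819.3 and 3391.2 in UB, against 5437.8, 5853.4 and 5758.3 in hand-dissected MM. No UB array reached the lowest MM array, and the log2 difference was -0.99 ± 0.20 (limma, adjusted p = 0.00427). A second Sdhc probe set gave -1.01 (adjusted p = 0.00896), and the call held with each array left out in turn.

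Sdha was also lower in UB, with 27675.2, 26890.7, 25626.1 and 27003.6 in UB against 35266.9, 35101.3 and 34040.9 in hand-dissected MM. The groups did not overlap, but the difference was small, -0.38 ± 0.10 (limma, adjusted p = 0.0216). The other bright Sdha probe set gave -0.24 and was not called (adjusted p = 0.194), and the call held in 3 of the 7 fits that left out 1 array. The remaining complex II genes overlapped between groups: Sdhb differed by 0.12 ± 0.19 (adjusted p = 0.697) and Sdhd by -0.11 ± 0.21 (adjusted p = 0.735).

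The subunits higher in UB were accessory subunits of complex I, which surround its catalytic core. Ndufb3 had 10756.3, 13360.0, 13942.1 and 16449.7 in UB, against 9083.3, 8049.5 and 7295.5 in hand-dissected MM. All UB arrays were above all MM arrays, with a difference of 0.73 ± 0.18 (limma, adjusted p = 0.0113). Ndufa12 had 11922.8, 14989.2, 16834.8 and 19749.8 in UB, against 10773.8, 9940.3 and 9031.9 in MM, again without overlap (0.66 ± 0.18, adjusted p = 0.0227). Ndufb1 was dim, with 147.4 to 321.5 in UB and 95.4 to 111.5 in MM. It was at or below the array median in every MM array, so it passed the filter through the UB arrays alone. Its difference of 0.95 ± 0.30 (limma, adjusted p = 0.0378) rests on low signals. Only Ndufb3, of these 3, kept its call in 6 of the 7 fits with 1 array left out, losing it without hand-dissected replicate 7, where no member was called higher.

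In complex I the most negative difference was that of Ndufa9, an accessory subunit (-0.43, adjusted p = 0.0882). In complex III the differences ran down to -0.31 for Uqcrh, the hinge subunit (adjusted p = 0.423), and up to 0.77 for Uqcr10, a small subunit (adjusted p = 0.076). In complex IV they ran down to -0.55 for Cox8a (adjusted p = 0.323) and up to 0.45 for Cox5a (adjusted p = 0.063). The SE of a member's difference was 0.19 in the median. Besides the second Sdhc probe set, 4 probe sets that do not represent their gene were called in UB. Those of the complex I genes Ndufb8 (1.10, limma adjusted p = 0.00416), Ndufc2 (0.97, 0.00829) and Ndufab1 (0.86, 0.0481) were higher, and that of Cox7a2l (-0.43, 0.0293) was lower.

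The count of calls rested on single arrays. Without UB replicate 1, which was lowest in most members, 9 members were called higher and 3 lower in UB, beside 17.99% of all tested probe sets higher and 15.4% lower. When the 4 captured arrays were added to the mesenchyme, no member was called in either direction and the median turned to -0.17. Of all tested probe sets, 8.32% were then called higher and 10.4% lower in UB. The 3'/5' signal ratio of Gapdh, a measure of RNA integrity and amplification length, averaged 8.72 in UB and 42.5 in hand-dissected MM (two-sided exact permutation p = 0.0571, the smallest that 4 against 3 arrays can give; 0.343 after adjustment over 6 tests). That of Actb averaged 13.1 in UB and 13.8 in MM (exact permutation p = 0.8). Erythroid markers were lower in UB in 5 of 6 tested genes and macrophage markers in 4 of 5. So were all 5 tested stroma markers, all 5 tested endothelial markers (sums of 1349 to 2901 in UB and 7794 to 11942 in MM) and 3 of 4 muscle markers (sums of 376 to 1129 in UB and 2817 to 11930 in MM). The muscle marker Tagln, the macrophage markers Tyrobp and Fcgr3 and the endothelial marker Tie1 were at or below the array median in every UB array. Those of them that were tested passed the filter through the MM arrays alone. The part of RNA quality and of these cells in the subunit differences was not tested, and in these bulk samples fewer cells of a type and less RNA per cell cannot be told apart.

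**Figure D2:**
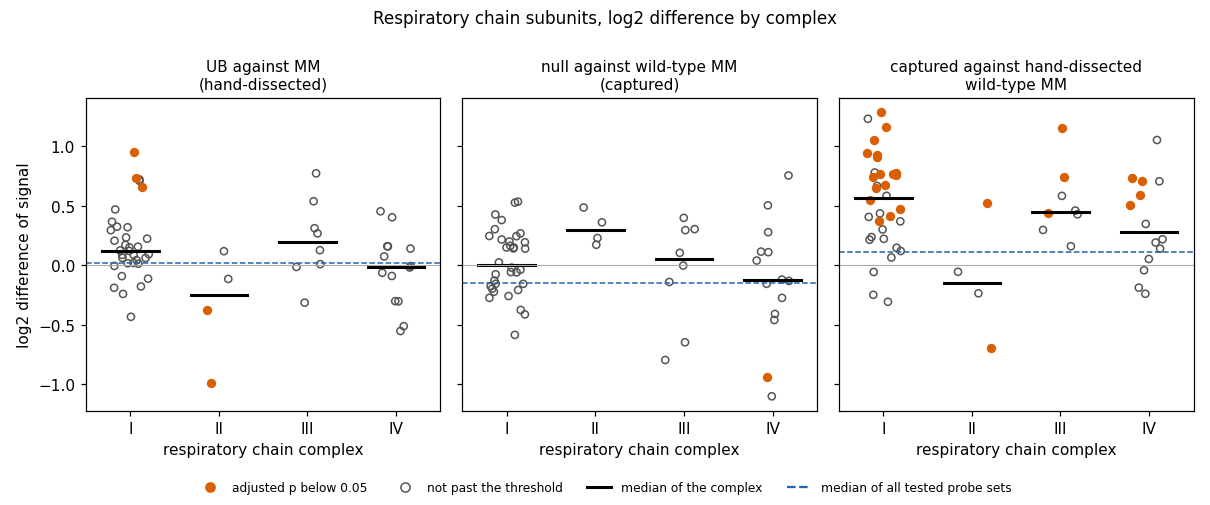
Log2 differences of signal (vertical axis) of the tested subunits by complex (horizontal axis) in UB against hand-dissected MM, null against wild-type captured MM, and captured against hand-dissected wild-type MM; each point is a gene, filled where its adjusted p is below 0.05, black bars are complex medians and the dashed line the median of all tested probe sets. The complex I median is 0.12, 0.00 and 0.57 in the 3 comparisons, and that of complex II -0.25, 0.30 and -0.14.

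In Hoxa11/Hoxd11 double null MM, the subunit genes were near their level in captured wild-type MM. Cox6c, a complex IV subunit, was lower, and no member was called higher. Of all tested probe sets 1.76% were called, 0.59% higher and 1.17% lower in null, so 1 call among 60 members is near the background. The members' median log2 difference was 0.03, with 31 positive and 29 negative, while that of all tested probe sets was -0.15. Without adjustment, limma gave p below 0.05 for 5 members higher and 5 lower.

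Cox6c had 9723.7, 14477.0, 13869.9, 9758.6 and 18672.0 in null MM, against 23353.5, 25210.2, 25598.3 and 24915.2 in captured wild-type MM. The wild-type arrays were tightly grouped and every null array was below them, a log2 difference of -0.94 ± 0.19 (limma, adjusted p = 0.0391). A second Cox6c probe set gave -0.43 and was not called (adjusted p = 0.304). The call was held in 8 of 18 alternative settings and in 3 of the 9 fits that left out 1 array, so it sits at the edge of the threshold.

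In 5 members all null arrays were below all captured wild-type arrays, and in none above them; 6.14% and 2.68% of all tested probe sets were separated in these directions. These were Cox6c, Cox7a1, Ndufb6, Uqcrh and Uqcrq. Uqcrh had 1075.0, 1839.7, 1257.2, 1704.6 and 1636.4 in null MM, against 2410.4, 2275.4, 2972.1 and 2728.6 in wild-type MM (-0.79 ± 0.23, limma adjusted p = 0.1). Uqcrq, a ubiquinone-binding subunit of complex III, had 4661.4 to 10434.0 in null MM and 10437.0 to 13037.2 in wild-type MM (-0.65 ± 0.23, adjusted p = 0.161), so its groups all but touched.

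No complex II gene was called in null MM. Sdhd differed by 0.49 ± 0.22 (limma, adjusted p = 0.272), Sdha by 0.36 ± 0.15 (0.222), Sdhc by 0.23 ± 0.36 (0.77) and Sdhb by 0.17 ± 0.15 (0.567). Sdhc was the most scattered of them, with 1609.6 in null replicate 1, 3740.9 in replicate 5 and 5679.9 to 5843.4 in the others, against 2964.9 to 4240.3 in captured wild-type MM. The signs of Sdhd and Sdhc depended on the probe set. A dimmer Sdhd probe set gave -1.11 (limma adjusted p = 0.119) and the second Sdhc probe set gave -0.14 (0.842). The other bright Sdha probe set kept the positive sign, at 0.318 (limma adjusted p = 0.325). Sdha as a mean over its probe sets gave -0.39, but that mean includes dim Sdha probe sets that did not pass the filter.

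In complex I the differences ran from -0.58 for Ndufs5 (limma, adjusted p = 0.271) to 0.53 for Ndufab1, the acyl carrier protein that is also a complex I subunit (adjusted p = 0.222). Ndufs1, the largest core subunit, was close behind with 17981.1, 26076.2, 23474.3, 20709.2 and 22942.0 in null MM against 18290.1, 15027.2, 13863.3 and 14402.6 in wild-type MM (0.53 ± 0.14, adjusted p = 0.0907). In complex III, Uqcr10 was the most positive (0.40, adjusted p = 0.538). In complex IV the range was -1.10 for Cox7a1 (adjusted p = 0.254) to 0.75 for Cox6a2 (adjusted p = 0.309), both dim heart and muscle isoforms.

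Null replicate 1 pulled the member values down. The mean log2 signal over the 60 members was 12.95 in that array and 13.38 to 13.66 in the other null arrays, against 13.23 to 13.54 in captured wild-type MM. Without it the members' median difference was 0.14 and 3 members were called higher in null (Ndufa3, Ndufb3 and Ndufs1), with Cox6c still lower. Of all tested probe sets, 2.33% were then called higher and 5.64% lower. Ndufb3 had 7947.7 in replicate 1 and 21838.4 to 28574.3 in the other null arrays, against 12774.2 to 18060.8 in wild-type MM.

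One probe set that was not used to represent its gene was also called. It is a dimmer probe set of Cox5a, which was lower in null MM (-0.84, limma adjusted p = 0.0265), while the brightest Cox5a probe set gave -0.12 (0.592) and another 0.45 (0.285). The Cox5a probe sets therefore disagreed in sign.

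Of the other mitochondrial genes, Ppargc1a, a transcriptional coactivator of mitochondrial biogenesis, was lower in null MM. It had 418.3, 268.5, 122.6, 104.2 and 85.0 in null MM, against 758.0, 770.3, 985.0 and 739.9 in captured wild-type MM (-2.03 ± 0.43, limma adjusted p = 0.0427), without overlap. It was the single called gene of the 17 tested biogenesis regulators, and its call held in 7 of 18 alternative settings. Of the 17, 7 had an unadjusted p below 0.05 and a negative difference. No share of all tested probe sets at that unadjusted threshold was computed, so these 7 have no background. The median of all tested probe sets was -0.15. Among 44 tested assembly factors the single call was Cox15, needed to make the heme A of complex IV, with 440.3 to 1816.4 in null MM and 22.4 to 159.2 in wild-type MM (3.37 ± 0.48, adjusted p = 0.0098), against assembly-factor differences with a median of -0.13. Every captured wild-type array had Cox15 at or below its own median, so the gene passed the filter through the null arrays alone, and the alternative settings gave it differences as low as 1.71 and as high as 3.90. No gene was called by limma among 18 of ATP synthase (1 higher and 4 lower at unadjusted p below 0.05), 12 of the citric acid cycle (0 and 0) or 15 of the outer membrane and import machinery (3 and 2). Summed muscle markers ran from 1629 to 109436 in null MM and from 2248 to 36074 in wild-type MM. Tyrobp, the 1 called of 6 tested macrophage markers, was lower in null MM (-2.28, limma adjusted p = 0.047). All 6 macrophage differences were negative, with a median of -2.35. The macrophage sums were 933 to 14003 in null MM and 10932 to 20196 in wild-type MM. All 7 tested endothelial markers also had negative differences (median -0.93), and none was called. Ina, the 1 called of 4 tested neuronal markers, was higher (3.51, adjusted p = 0.0391). It was at or below the array median in every captured wild-type array, so it passed the filter through the null arrays alone. The part of such cells in the subunit values was not tested.

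**Figure D3:**
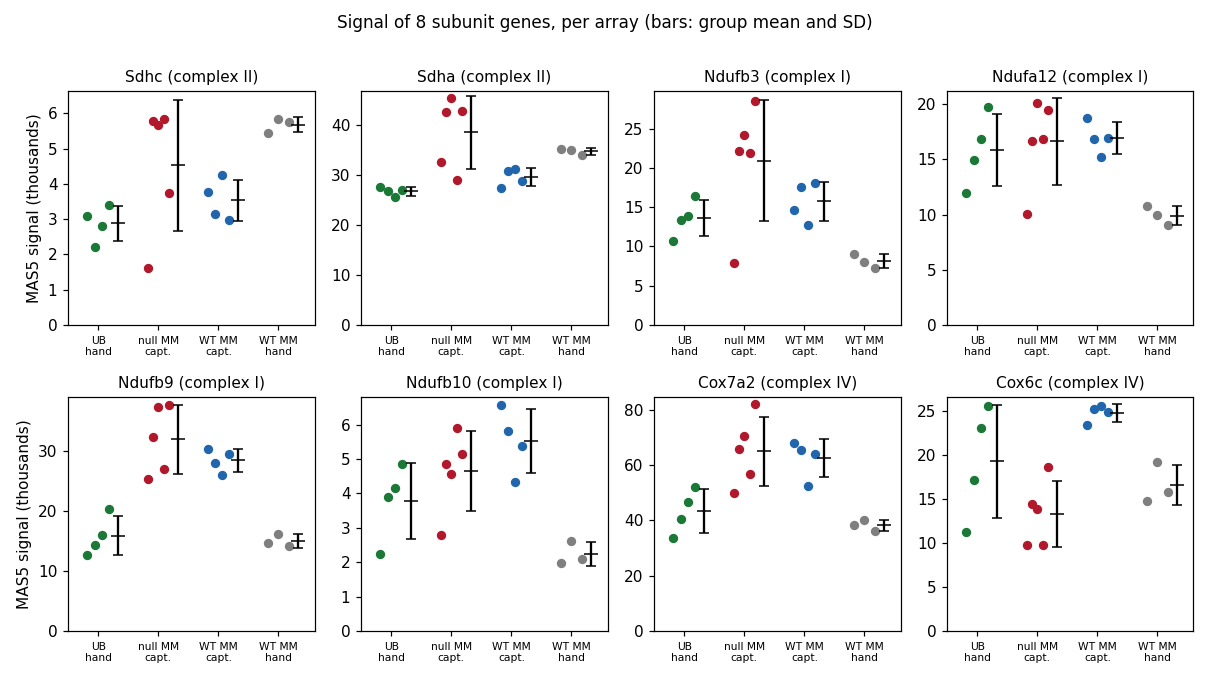
MAS5 signal divided by 1000 (vertical axis, from 0) of 8 subunit genes in each array (points), with group mean and SD (bars); groups run from UB through null captured and wild-type captured to wild-type hand-dissected MM. Sdhc and Sdha are highest among wild-type groups in hand-dissected MM, Ndufb9, Ndufb10 and Cox7a2 are higher in all captured wild-type than in all hand-dissected arrays, and Cox6c is lower in all 5 null arrays than in the 4 captured wild-type arrays.

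Of the 3 comparisons, that of the dissection methods held the most called members. In wild-type MM taken by laser capture, against that dissected by hand, 25 members were higher and 1 lower, with a median log2 difference of 0.45 against 0.11 for all tested probe sets. Of all tested probe sets 24.8% were called, 16.3% higher and 8.51% lower in captured MM. Among the 5483 bright probe sets (mean log2 signal of at least 12), 18.9% were called higher and 16.8% lower. The share of members called higher, 41.7%, was above both backgrounds; bright probe sets as a whole were called about as often in either direction. In 37 members all captured arrays were above all hand-dissected arrays and in 3 below them, where 21.9% and 13.3% of all tested probe sets were so separated. Of the 37, Ndufb1 was at or below the array median in every hand-dissected array, so it passed the filter through the captured arrays alone. This comparison shares its hand-dissected arrays with the UB comparison and its captured arrays with the null comparison.

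Complex I, which makes up 34 of the 60 tested members, held 17 of the 25 members called higher. None of its genes was called lower (22 higher and 1 lower at unadjusted p below 0.05 from limma). The share of complex I genes called higher was 50%, beside 25% in complex II, 37.5% in complex III, 28.6% in complex IV and 44.4% for ATP synthase. The largest difference among called members was that of Ndufb10, an accessory subunit, with 6559.7, 5819.2, 4336.9 and 5371.5 in captured MM against 1979.8, 2620.2 and 2094.4 in hand-dissected MM. Every captured array was above every hand-dissected one (1.29 ± 0.20, limma adjusted p = 0.0018). Ndufb9 had the lowest adjusted p, with 30345.5, 27984.7, 25966.0 and 29530.2 in captured MM against 14598.0, 16232.5 and 14110.5 in hand-dissected MM (0.92 ± 0.11, adjusted p = 0.00064). Both passed in all 15 alternative settings.

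Further accessory subunits behaved alike. Ndufb3 had 14696.8, 17517.5, 12774.2 and 18060.8 in captured MM, against 9083.3, 8049.5 and 7295.5 in hand-dissected MM (0.94 ± 0.16, limma adjusted p = 0.00245). Ndufa12 had 18725.8, 16824.1, 15195.3 and 16913.5 in captured MM, against 10773.8, 9940.3 and 9031.9 in hand-dissected MM (0.77 ± 0.13, adjusted p = 0.00267). Neither overlapped between the groups. Ndufa2 (0.78), Ndufb7 (0.76), Ndufa5 (0.91), Ndufa13 (0.76) and Ndufa7 (1.16) were also among the 12 called members with the lowest adjusted p. As means over probe sets, Ndufa12 (0.50, limma adjusted p = 0.0699) and Ndufa7 (0.58, 0.0506) lost the call. Of the core subunits, Ndufs7 (0.74) and Ndufs8 (0.67) were called higher, while Ndufv1 (0.37, adjusted p = 0.0592), Ndufv2 (0.41, 0.0559), Ndufs3 (0.22, 0.229) and Ndufs1 (-0.25, 0.194) were not. The lowest difference was that of Ndufa9 (-0.31, adjusted p = 0.086).

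In complex II, 1 gene was called lower and 1 higher. Sdhc had 3765.1, 3150.9, 4240.3 and 2964.9 in captured MM, against 5437.8, 5853.4 and 5758.3 in hand-dissected MM. It was lower in every captured array (-0.69 ± 0.18, limma adjusted p = 0.0189), and the call was lost without captured replicate 2 or 4 or hand-dissected replicate 6 or 7. Sdhb was higher, with 30251.6, 27389.2, 22560.1 and 27659.5 in captured MM against 15353.3, 22481.7 and 18746.7 in hand-dissected MM (0.52 ± 0.15, adjusted p = 0.0263). The captured arrays lay above the others, though captured replicate 3 did so by little, and the call held in 2 of the 7 fits that left out 1 array and in 7 of 15 alternative settings overall. Sdha differed by -0.23 ± 0.10 (adjusted p = 0.0984) and Sdhd by -0.05 ± 0.16 (adjusted p = 0.828).

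In complex III, 3 of 8 genes were higher and all 8 differences were positive. The core proteins Uqcrc1 (0.74 ± 0.16, limma adjusted p = 0.00874) and Uqcrc2 (0.44 ± 0.11, 0.0174) and the small subunit Uqcr10 were called. Uqcr10 had 2953.9, 2522.6, 1885.6 and 2050.8 in captured MM, against 1189.7, 1243.7 and 717.5 in hand-dissected MM (1.15 ± 0.26, adjusted p = 0.00928). As a mean over its probe sets it differed by 0.59 and was not called (adjusted p = 0.145). Uqcrfs1, the Rieske iron-sulfur protein, had the smallest difference (0.16, adjusted p = 0.457). Uqcrb and Uqcrq just missed the threshold and were not called (limma adjusted p = 0.0519 and 0.0514).

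In complex IV, 4 of 14 tested genes were higher: Cox7a2, Cox5a, Cox6c and Cox4i1. Cox7a2 had 68080.1, 65536.5, 52547.8 and 64092.9 in captured MM, against 38433.8, 40151.2 and 36080.7 in hand-dissected MM (0.70 ± 0.10, limma adjusted p = 0.00138). Cox6c differed by 0.59 ± 0.12 (adjusted p = 0.00644), Cox5a by 0.73 ± 0.12 (0.00185) and Cox4i1 by 0.50 ± 0.11 (0.00815). The extremes of the complex were Cox7a1 (1.05, adjusted p = 0.0512) and Cox6b2 (-0.24, adjusted p = 0.58), both dim. Of the 26 called members, 17 had another tested probe set; another was also called for 10 of them, and for 1, Ndufs8, 1 of the others had the opposite sign (-0.27, adjusted p = 0.413).

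Among the tissue isoforms, Cox4i2, a lung and hypoxia isoform, and Cox7b2 were at or below the array median in every array of all groups. Cox8b, a heart and muscle isoform, was above it in 2 null arrays (127.5 and 251.3), and Ndufa4l2, which hypoxia induces, in 2 null arrays and 1 hand-dissected array. Cox7a2l, which takes part in respiratory supercomplexes, was bright in all groups, with signals of 22213.1 to 44875.0. None of the 5 tested isoforms of this list was called in any comparison through the probe set that represents it. A second Cox7a2l probe set was lower in UB (-0.43, limma adjusted p = 0.0293), and quantile normalization also called Cox7a2l lower in UB. At unadjusted p below 0.05 limma gave 1 of them lower in UB (Cox7a2l), 2 lower in null MM (Cox7a1 and Cox7a2l) and 1 higher in captured MM (Cox7a1). Of their 6 tested ubiquitous counterparts, Cox7a2 and Cox4i1 were higher in captured MM.

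Of the other mitochondrial lists, 44.4% of the ATP synthase genes, 13.3% of the import genes and 17.6% of the biogenesis regulators were called higher in captured MM, beside the 16.3% of all tested probe sets. ATP synthase had 8 of 18 genes higher and none lower (11 and 0 at unadjusted p below 0.05), with Atp5md (0.94), Atp5g2 (0.83), Atp5e (0.67) and the inhibitor Atpif1 (0.67) leading. Of 43 assembly factors 12 were higher, led by Uqcc2 (1.40), Cox16 (0.90), Fastkd2 (0.86) and Cox20 (0.86), and 3 lower: Nubpl (-0.77), Coa5 (-0.72) and Ndufaf7 (-0.61). The calls of Cox16 and Ndufaf7 held in 1 of the 7 fits that left out 1 array, and that of Cox20 in 3. As means over probe sets Cox16 differed by 0.26 (limma adjusted p = 0.554) and Cox20 by 0.15 (0.669). Cycs, cytochrome c itself, had 25799.4, 27285.0, 20487.8 and 21949.5 in captured MM, against 10722.1, 14195.3 and 14326.2 in hand-dissected MM (0.87 ± 0.15, limma adjusted p = 0.00273). As a mean over its probe sets Cycs differed by 0.15 (adjusted p = 0.563), and its call was also lost with all 16 arrays in 1 fit. Of the 12 citric acid cycle genes, Mdh2 (0.56), Dlst (0.50) and Fh1 (0.47) were higher and none lower. Of the 15 outer membrane and import genes, Tomm20 (0.99) and Tomm22 (0.57) were higher.

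Among 17 biogenesis regulators 3 were higher in captured MM and none lower. Esrra, an orphan nuclear receptor that acts on respiratory genes, had 709.4, 649.1, 566.4 and 665.0 in captured MM, against 264.3, 277.5 and 241.5 in hand-dissected MM (1.20 ± 0.25, limma adjusted p = 0.0063). Tfam, the packaging and transcription factor of mitochondrial DNA (0.90, adjusted p = 0.0203), and Polg, its polymerase (0.81, adjusted p = 0.00873), were the others. Tfam had the opposite sign as a mean over its probe sets (-0.33, adjusted p = 0.272). The only mitochondrially encoded subunit measured, ND5 of complex I, was not called in any comparison (-0.34 in UB, -0.19 in null MM and 0.32 in captured MM).

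In UB against hand-dissected MM, 17.6% of the 17 biogenesis regulators were called lower and none higher. The other mitochondrial lists had at most 8.33% of their genes called higher and 5.56% lower. Of all tested probe sets, 12.4% were called higher and 11.53% lower. Atp5j, a stalk subunit of ATP synthase, was lower in UB (-0.44, limma adjusted p = 0.046). Cox10 (0.94) and Ecsit (0.99) were the assembly factors higher in UB and Ndufaf7 (-0.85) the lower one of 43. Idh3a (0.56), a subunit of a citric acid cycle enzyme, and Tomm40 (0.95), the import pore, were higher. The regulators Ppargc1b (-2.27), Polg2 (-0.90) and Gabpa (-0.71) were lower in UB, with Ppargc1b at 11.3 to 202.6 in UB against 246.6 to 420.0 in MM. As means over probe sets, Cox10 (0.48, limma adjusted p = 0.0822), Idh3a (0.23, 0.464) and Gabpa (-0.43) lost the call. Those of Atp5j and Ecsit held in 2 of the 7 fits that left out 1 array.

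**Figure D4:**
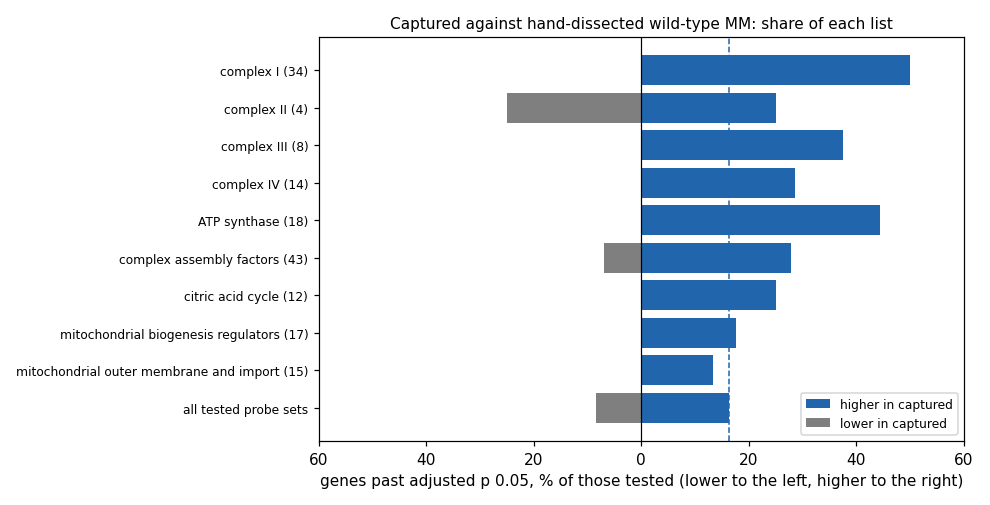
Share of tested genes called (horizontal axis, %; lower in captured to the left, higher to the right) for each complex and other mitochondrial list in captured against hand-dissected wild-type MM, with all tested probe sets at the bottom and their 16.3% called higher as a dashed line; numbers in brackets are genes tested. Complex I reaches 50% higher and ATP synthase 44.4%, while complex II has 25% in each direction and the import list 13.3% higher.

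The 2 kinds of mesenchyme also differed in cell type markers. All 9 tested ureteric bud markers were higher in captured MM, with a median of 2.51, among them Calb1 (5.83), Cdh1 (3.50) and Ret (3.12). Cdh1, Gata3 and Lhx1 were at or below the array median in every hand-dissected array, so they passed the filter through the captured arrays alone. The summed signal of the bud markers was 10240 to 61266 in captured MM and 2916 to 3194 in hand-dissected MM, against 167502 to 212027 in UB. Erythroid markers were higher in 4 of 6 tested genes (sums of 86661 to 167773 in captured and 64029 to 72899 in hand-dissected MM) and macrophage markers in 2 of 5 (10932 to 20196 and 4089 to 11361). No endothelial gene of 7 and no muscle gene of 4 was called by limma (2 and 0 higher, 0 lower, at unadjusted p below 0.05), and 1 of 7 nephron progenitor genes was lower. Of 5 stroma markers 2 were lower (Meis1 and Aldh1a2) and 1 higher (Tcf21), with sums of 42052 to 69462 in captured and 62443 to 73259 in hand-dissected MM. The neuronal marker Tubb3 was higher, 1 of 3 tested, and it too passed the filter through the captured arrays alone. Captured replicate 2 had the highest bud marker sum, and without it 21 members and 11.8% of all tested probe sets were called higher. Captured replicate 3, which held the lowest signal of its group in 43 of the 60 tested members, had the lowest sum. Without it, 31 members and 16.6% of all tested probe sets were called higher. Without replicate 1 (bud marker sum 22927) these values were 23 and 13.4%, and without replicate 4 (42955) they were 22 and 11.7%. The members' median log2 difference in these fits was 0.43 to 0.51. The Gapdh 3'/5' ratio averaged 19.8 in captured and 42.5 in hand-dissected MM (two-sided exact permutation p = 0.171) and that of Actb 17.1 and 13.8 (exact permutation p = 0.229). The part of cell make-up and RNA quality in the subunit differences was not tested.

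The scaling also bore on this comparison. With each array centred on its median, the median over all tested probe sets was -0.08 in place of 0.11, that of the members 0.25 in place of 0.45, and 19 members were called higher and 4 lower. Of all tested probe sets, 10.3% were then called higher and 13.6% lower in captured MM. The 4 members were Sdhc, Sdha, Ndufa9 and Ndufs1. In UB against MM the same centring gave 8 members higher and 1 lower, with 16.8% of all tested probe sets higher and 9.24% lower and a median of 0.16 for them. In null against wild-type MM it gave no call, with medians of 0.33 for the members and 0.15 for all.

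Promoter sequences from RefSeq (GRCm38.p6; 250 bases before to 50 after the annotated start) were matched by symbol for 52 of the 65 members. They were searched on both strands for GCGC and TGCGC set 1 base apart, the core of the site of nuclear respiratory factor 1 (NRF1), and for CCGGAAG, the core of an ETS site as bound by GABP (NRF2). These are the factors classically tied to respiratory chain genes. No match of one motif overlapped a match of the other in these windows. The NRF1 motif was found in 9 members (17.3%), against 5.19% of 27025 genes, and the ETS motif in 11 (21.2%), against 9.93%. Base composition was not matched between these sets. Either motif was present in 7 of 20 members called higher in captured MM (35%) and in 10 of 29 tested members that were not called (34.5%). A match is a description of letters, not evidence of binding.

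The promoters of 4 members are printed to set windows with and without these motifs beside the calls; capitals mark a match, and one on the opposite strand reads GCGCA and GCGC set 1 base apart, or CTTCCGG. Sdha (chr13:74350191-74350490, minus strand; 3 NRF1 matches) was lower in UB, and Sdhb (chr4:140961021-140961320, plus strand; 1 ETS match) was higher in captured MM. Ndufb7 (chr8:83566508-83566807, plus strand; 1 ETS match) and Ndufb3 (chr1:58586147-58586446, plus strand; no match) were both higher in captured MM.
Sdha: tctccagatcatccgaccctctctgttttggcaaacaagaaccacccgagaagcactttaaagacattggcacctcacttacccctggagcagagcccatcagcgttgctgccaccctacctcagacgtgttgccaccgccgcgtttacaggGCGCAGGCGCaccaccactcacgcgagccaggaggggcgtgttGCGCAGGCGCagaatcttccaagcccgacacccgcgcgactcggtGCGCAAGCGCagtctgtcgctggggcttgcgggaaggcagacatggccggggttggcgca
Sdhb: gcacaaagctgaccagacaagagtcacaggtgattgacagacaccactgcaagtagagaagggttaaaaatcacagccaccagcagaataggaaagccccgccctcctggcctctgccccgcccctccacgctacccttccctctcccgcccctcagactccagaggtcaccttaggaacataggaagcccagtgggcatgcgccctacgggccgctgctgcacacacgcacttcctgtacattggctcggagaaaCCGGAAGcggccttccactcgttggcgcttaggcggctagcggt
Ndufb7: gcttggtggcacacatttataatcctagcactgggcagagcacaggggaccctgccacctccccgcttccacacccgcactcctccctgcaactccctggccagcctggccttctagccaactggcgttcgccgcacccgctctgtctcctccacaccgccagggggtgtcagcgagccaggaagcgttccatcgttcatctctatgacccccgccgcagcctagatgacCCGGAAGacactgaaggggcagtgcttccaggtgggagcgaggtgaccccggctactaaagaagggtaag
Ndufb3: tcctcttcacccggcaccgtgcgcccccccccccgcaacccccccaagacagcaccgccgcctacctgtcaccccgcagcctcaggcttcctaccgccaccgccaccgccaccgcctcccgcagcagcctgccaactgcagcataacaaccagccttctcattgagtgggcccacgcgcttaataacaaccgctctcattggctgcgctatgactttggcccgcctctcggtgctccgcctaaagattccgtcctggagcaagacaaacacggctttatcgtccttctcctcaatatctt
Sdhc, Ndufb9 and Cox6c are named without a sequence. Nrf1 itself was not called in any comparison (0.41 in UB, 0.11 in null MM and 0.54 in captured MM), nor was Gabpa in null MM (-0.57, limma adjusted p = 0.121) or captured MM (-0.38, adjusted p = 0.146).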

How the data were processed

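Values are the intensities deposited by the authors: linear MAS5 signals per the submitters' processing notes, with a mean of 1500 per array after trimming 2% at each tail, as read from the values. The sources used here name no MAS5 version, detection calls or scan dates. Of 45101 probe sets 64 controls were dropped. Signals became log2(signal + 36.3), the offset being the 25th percentile of all values. Probe sets brighter than their array's median in n or more arrays, n being the size of the smaller group, were tested over the 2 groups of each comparison with limma 3.58.1 in R 4.3.3 (lmFit, eBayes with trend; tested on simulated data). Exact permutation tests used scipy 1.17.1. The series text describes replicates as separate embryos. The number of arrays limits the precision. No batch could be tested.

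Members and gene lists were chosen with earlier results of these data known. Named genes are called members, up to 12 per direction and comparison by adjusted p, the extremes of each complex, complex II, the isoforms and counterparts, and called genes of other mitochondrial lists, up to 4 per direction. Outside this rule, further genes (such as the core complex I subunits, Nrf1, genes near the threshold, genes separated between groups and the Cox5a probe set) were named after their values were seen. Promoters are those of RefSeq GRCm38.p6. Alternatives covered scaling, offset, filter, weights, arrays in the fit, probe sets and each array left out.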

Additional observations from a re-analysis of the deposited data

Results flagged for a closer look

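Of 86 sets of 4 or 5 arrays of a named member in 1 group, 2 held an array far from the others by Dixon's test at the 95% level, where chance flags about 1 in 20. Cox6b2, a testis isoform of complex IV, had 439.1 in UB replicate 3 and 364.0 to 368.6 in the other UB arrays. Cox8b had 41.4 in UB replicate 4 and lower signals, from 9.0 upward, in the others, all below the array median. Both are dim.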

How the results depend on the processing

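Counts of called members are given as higher and lower. In UB against MM (3 and 2) all 16 arrays in 1 fit gave 2 and 0, all 7 wild-type mesenchyme arrays 0 and 0 with a median of -0.17, array weights 18 and 3, the mean over probe sets 3 and 1, median centring 8 and 1, and no filter 2 and 1. Of everything tested, the shares called higher and lower were, in the same order, 7.97% and 7.04%, 8.32% and 10.4%, 22.4% and 20.1%, 12.1% and 11.9%, 16.8% and 9.24%, and 5.44% and 6.18%. Leaving out 1 array gave 0 to 9 higher, 1 to 3 lower and medians of 0.01 to 0.15. The extremes were without hand-dissected replicate 7 (0 higher) and UB replicate 1 (9 higher), and 1 was higher without UB replicate 3 or 4. These fits called 8.36% to 17.99% of all tested probe sets higher and 7.6% to 15.4% lower. In null against wild-type MM (0 and 1) all 16 arrays in 1 fit and array weights each gave 2 and 2, and the mean over probe sets, median centring (median 0.33) and no filter 0 and 0. Of all tested probe sets, all 16 arrays in 1 fit called 2.21% higher and 5.45% lower, and array weights 2.18% and 4.89%. Leaving out 1 array gave 0 to 3 higher, 0 to 2 lower and medians of -0.01 to 0.14, beside 0.09% to 2.33% of all tested probe sets higher and 0.16% to 5.64% lower. Cox6c was lost without null replicate 2 or 3 or any 1 of the 4 wild-type arrays. In captured against hand-dissected MM (25 and 1) all 16 arrays in 1 fit gave 14 and 0, array weights 42 and 1 (with 21.4% of all probe sets higher and 12.8% lower), median centring 19 and 4 with a median of 0.25, and quantile normalization 26 and 2. Of all tested probe sets, all 16 arrays in 1 fit called 7.95% higher and 3.96% lower, median centring 10.3% and 13.6%, and quantile normalization 12.4% and 10.8%. Leaving out 1 array gave 17 to 31 higher, 0 to 1 lower and medians of 0.39 to 0.51, beside 9.52% to 16.6% of all tested probe sets higher and 4.02% to 9.35% lower. Tfam reversed as a mean over probe sets (-0.33). Over single genes, 1434 of the alternative values kept direction and side of the threshold, 162 lost the call and 28 gained one. The cause of these changes was not tested. Signals near background limit Ndufb1, Cox7a1 and the other dim isoforms.

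Null and captured wild-type arrays share replicate numbers 1 to 4, but no label says that the numbers pair samples. Deviations of same-numbered arrays correlated at -0.051 to 0.065, so no shared deviation was seen, which cannot by itself decide whether samples were paired. With the replicate block 0 members were called in either direction, with a median of 0.03.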
